A study of Mus musculus with 2 samples.

Results

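Krt6a, Krt6b, Krt16 and Krt17 are the stress keratins of stratified epithelia, and these 4 genes, chosen by symbol among 32285 in the count tables, were followed through the keratinocytes of mouse palatal gingiva. The data were 2 droplet-based single-cell RNA-seq libraries from female wild-type C57BL/6J mice aged 8 to 12 weeks. In 1 library the palatal gingiva had received CpG ODN, a synthetic oligodeoxynucleotide that TLR9 recognises, and in the other LPS of *P. gingivalis*, a ligand of TLR2/4. Each ligand (3 µl at 1 µg/ml) had lain on the tissue for 1 h beneath an oral appliance and the tissue was taken 4 days later. Cells freed with collagenase II and trypsin were pooled from 4 mice in equal numbers before each library was made. No untreated library was used here, so a level cannot be called raised or lowered by a ligand. With 1 library per ligand no test between ligands was possible, and all intervals are 95% intervals that cover counting error only, not the spread between mice or cells.

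Keratins are the intermediate filament proteins of epithelial cells, and each filament is built from pairs of a type II and a type I chain. Krt6a and Krt6b are type II keratins, and Krt16 and Krt17 are type I keratins that pair with them. In skin they are known for their induction at wound edges and in inflamed or hyperproliferative epidermis, but hair follicles, nail beds and the palate and gingiva express some of them without injury. Krt5 and Krt14 mark the basal layer of stratified epithelia, Krt1, Krt10 and the palatal keratin Krt76 mark the layers above it in keratinised epithelium, and Krt4 and Krt13 mark those of non-keratinised oral lining.

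The members form neighbouring gene pairs, all on the minus strand (GENCODE M21, GRCm38, joined to the count tables by identifier). Krt6a lies at chr15:101689910-101694307 and Krt6b at chr15:101676023-101680287, 9622 bp apart, with 9 exons each. Krt16 lies at chr11:100246091-100248902 and Krt17 at chr11:100256217-100261029, 7314 bp apart, with 8 exons each. The coding sequences of Krt6a and Krt6b were identical in 97.6% of aligned positions, those of Krt16 and Krt17 in 73.0%, and those of a type II and a type I member in 53.2% to 55.3%. The near-identity of the type II pair is shown by the end of the coding sequence in the annotation, since it bears on whether reads can be assigned to Krt6a or Krt6b. The last 120 nt of each were aligned, and capitals mark the positions without an identical partner, 9 of 123, of which 6 are gaps. The leading GGC of Krt6a is unpaired only because both sequences were cut at 120 nt. Over the whole coding sequences, 1665 aligned positions, Krt6b has no gap.
Krt6a: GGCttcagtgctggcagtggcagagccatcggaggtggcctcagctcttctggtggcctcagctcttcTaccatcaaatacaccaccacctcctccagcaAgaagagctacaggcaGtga
Krt6b: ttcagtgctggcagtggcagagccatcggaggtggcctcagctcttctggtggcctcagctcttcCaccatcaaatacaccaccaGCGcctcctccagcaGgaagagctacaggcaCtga
The assay reads the 3′ end of the transcript, and there the genes are distinct. None of the 451 windows of 50 nt in the last 500 nt of Krt6a or of Krt6b occurred in another of the 59 keratin transcripts searched, against 48.5% and 44.8% of the windows of the whole transcripts. The same share was 1.33% at the end of Krt16 and 9.53% at the end of Krt17, where the shared windows were those of Krt14. Each captured molecule gives 1 unique molecular identifier (UMI) whatever the length of the transcript, so levels are given as counts per 1000000 UMIs of the summed cells (CPM) and were not divided by length.

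Among cells with at least 800 detected genes, 3655 of 4888 in the CpG ODN library and 950 of 1277 in the LPS library were keratinocytes, with a median of 13247 and 27500 UMIs. Keratinocytes fell into 14 of 26 clusters, built with the 4 genes held out, and the clusters were named from marker genes. Basal-like clusters (1835 and 438 cells) expressed Krt5, Krt15 and Col17a1, the dividing cluster (281 and 72 cells) Mki67 and Top2a, and suprabasal-like clusters (1522 and 424 cells) differentiation genes. In the 7 suprabasal-like clusters these included Krt76 above its basal level except in cluster 15, which was named from Krt4, Krt13 and other genes. A small cluster (17 and 16 cells) expressed Odam, a marker of the junctional epithelium that seals gingiva to tooth, and is called junctional-like. Among signature genes of other cells, the B-cell list summed to 12.5 and 2.88 CPM in keratinocytes, the macrophage gene Lyz2 was at 0.781 and 0.450, and the fibroblast gene Col1a1 at 1.15 and 0.330. The plasma-cell list summed to 401 and 417, of which Sdc1, also made by epithelia, gave 349 and 364. The fibroblast list summed to 150 and 194, of which Dcn gave 144 and 193, and it lay mostly in basal-like cells (351 and 508). The myeloid list summed to 26.1 and 449 and was led by S100a8 and S100a9, which lay mostly in the junctional-like cells described below. The part of these lists in the results was not tested.

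All 4 genes were abundant in the gingival keratinocytes of both libraries. Krt6a stood at 9239.7 CPM in the CpG ODN library and 7842 in the LPS library. Krt16 stood at 7959.9 and 6875, Krt6b at 3080.3 and 2985, and Krt17 at 2052 and 1637. The order Krt6a, Krt16, Krt6b, Krt17 was the same in both libraries, and no counting intervals of neighbours in that order overlapped. Keratins in all took 8.12% of keratinocyte UMIs in each library, and the 4 genes 27.5% and 23.8% of those. Krt6a and Krt6b held 37.2% and 32.4% of the type II keratin UMIs, and Krt16 and Krt17 20.8% and 17.8% of the type I keratin UMIs. Krt76 led the type II keratins in both libraries and Krt14 the type I keratins, with Krt6a next after Krt76 and Krt16 next after Krt14 and Krt13.

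The layers separated the 4 genes. In basal-like cells Krt6a was already at 4237 CPM in the CpG ODN library and 3429 in the LPS library, and it came next after Krt5 among type II keratins. Krt17 was at 1044 and 1156, and Krt16 at 568 and 542. Krt6b was close to absent from the basal layer, at 59.4 and 43.2 CPM. Basal-like cells thus held 71.3 and 79.4 UMIs of Krt6a for each UMI of Krt6b.

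Going from basal-like to suprabasal-like cells, the near-identical type II genes went apart. Krt6a was at 12449 and 10308 CPM in suprabasal-like cells, which is 2.94-fold (2.92 to 2.96) and 3.01-fold (2.97 to 3.04) the basal level. Krt6b was at 4939 and 4449.7, 83.1-fold (78.5 to 88.0) and 103-fold (93.5 to 114) the basal level. Krt16 was at 12598 and 10293, 22.2-fold (21.8 to 22.6) and 18.98-fold (18.5 to 19.5) the basal level. Krt6b and Krt16 thus followed the layer much more steeply than Krt6a, in each library on its own. The size of the Krt6b fold is not fixed, and its basal level lay near that of the B-like cells described below. Over 18 alternatives the Krt6b fold went from 24.4 to 311 and from 16.7 to 312. That of Krt16 went from 12.2 to 50.05 and from 9.61 to 38.6, and that of Krt6a from 2.39 to 4.10 and from 2.17 to 3.96.

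Krt17 followed the layer least, at 2673 and 1679 CPM in suprabasal-like cells, 2.56-fold (2.52 to 2.60) and 1.45-fold (1.42 to 1.48) the basal level. These are folds of the sum, and 50% of the suprabasal-like Krt17 UMIs lay in 3.09% and 4.01% of the cells. The median cell was lower in the suprabasal-like layer, at 0.992 and 0.457 Krt17 UMIs per 10000 against 1.60 and 1.35 in the basal-like layer. A single LPS basal-like cell held 31.7% of the Krt17 UMIs of its layer, and without the top cell of each layer the LPS ratio was 2.01. The LPS direction was not fixed either, since with all keratins held out of the clustering the ratio was 0.822 and with each library clustered alone 0.986. Of the genes with at least 100 UMIs in these cells, 7.37% in the CpG ODN library and 8.46% in the LPS library were over 2-fold higher in suprabasal-like cells, and 19.1% and 17.5% were over 2-fold higher in basal-like cells. All 4 members were past that size in the CpG ODN library, and Krt6a, Krt6b and Krt16 but not Krt17 in the LPS library. The median ratio over all these genes was 0.773 and 0.781.

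Other keratins measured the same way give the scale. Krt10 was 58.5-fold and 52.6-fold higher in suprabasal-like cells, Krt1 32.9-fold and 24.6-fold, and Krt76 8.09-fold and 7.06-fold. Krt4 was 137-fold and 143-fold higher. The Krt6b fold cannot be ranked among these, because its range over alternatives took in the values of Krt10 and Krt4. Krt5 was at 0.146 and 0.131 and Krt15 at 0.186 and 0.180 of its basal level, while Krt14 RNA held at 0.823 and 0.706.

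**Figure D1:**
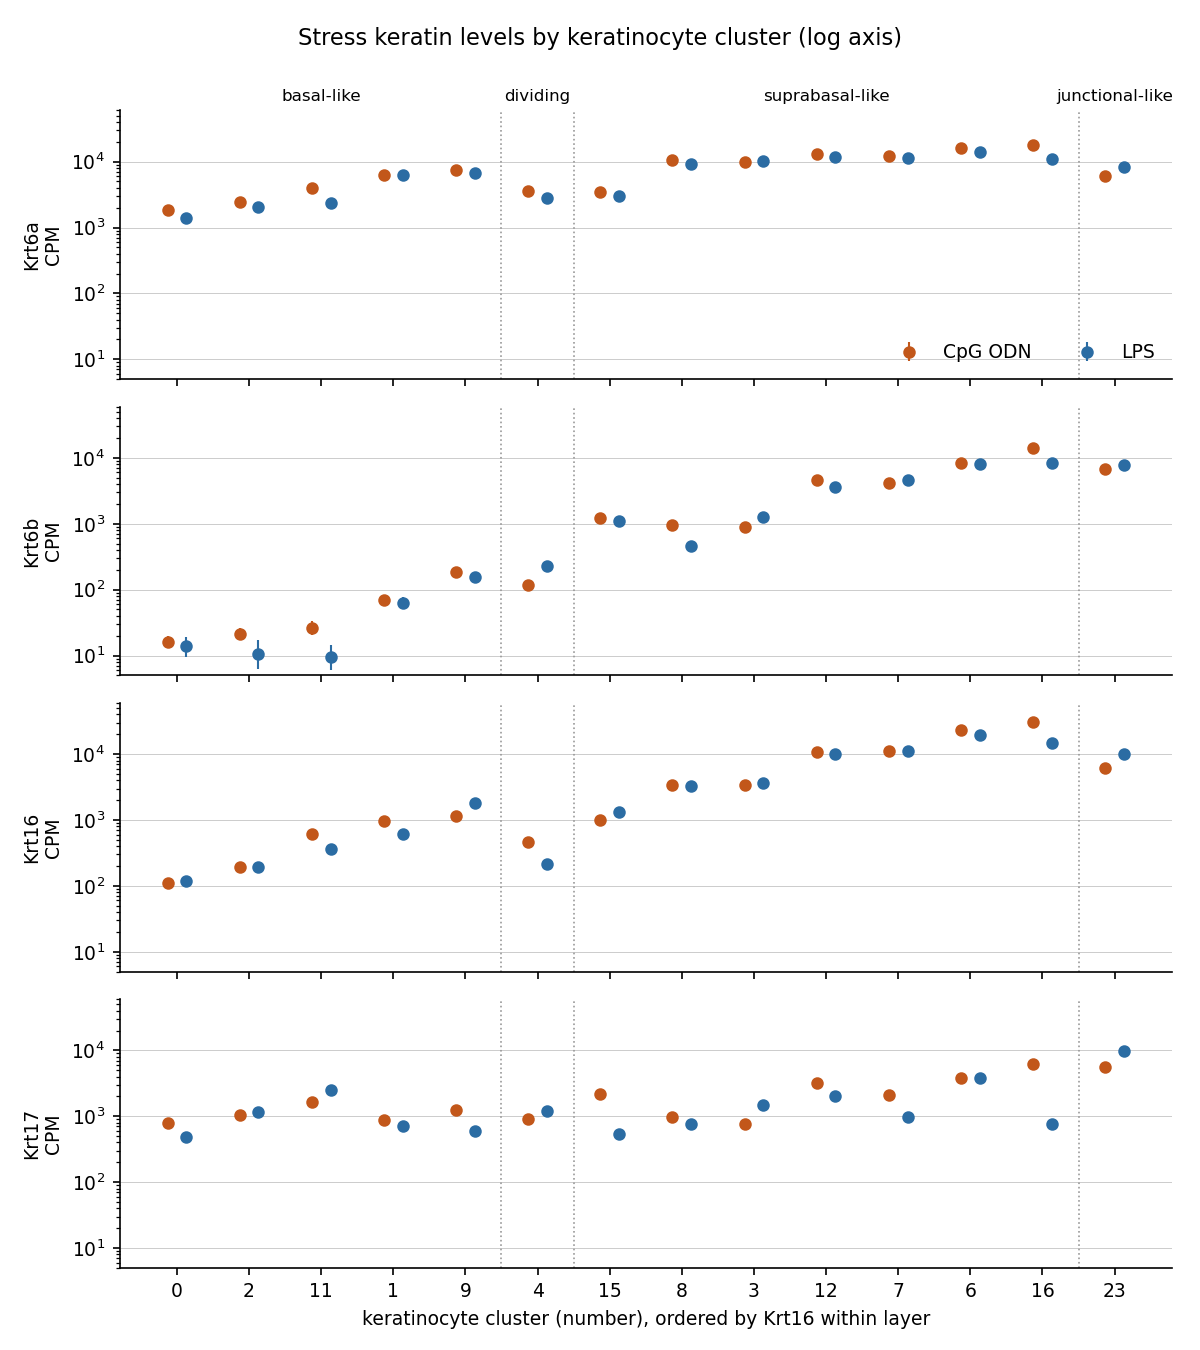
Level of each stress keratin (CPM, log axis) in each keratinocyte cluster of the CpG ODN library (orange) and the LPS library (blue), with 95% Poisson intervals that are mostly narrower than the points. Krt6b rises from 16.1 (CpG ODN) in basal-like cluster 0 to 14052 in suprabasal-like cluster 16, whereas Krt17 has no such slope and is highest in the LPS junctional-like cluster 23, at 9703.

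Within the basal-like layer the clusters differed in how far the genes were on. Cluster 0, led by Dcn and Pappa, was lowest in Krt6a (1814 and 1399.7 CPM), and cluster 9, led by Ptn and Igfbp3, was highest (7441 and 6769). Krt16 went with it, from 112 and 117 in cluster 0 to 1157 and 1790.3 in cluster 9. Krt17 did not follow that order, at 784 and 478 in cluster 0, 1241 and 604 in cluster 9, and 1664 and 2481 in cluster 11, which is led by Dcn and H19. In cluster 11 a single LPS cell held 59.3% of the Krt17 UMIs.

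Within the suprabasal-like layer Krt6b and Krt16 were higher in clusters 6 and 16, which had late differentiation genes, than in cluster 3, which had few. Cluster 15, described below, also had such genes, but its Krt16 lay below that of cluster 3. Cluster 3, led by Cryba2 and Serpinb12, held Krt16 at 3369 and 3677 CPM and Krt6b at 879 and 1267. Cluster 6, which expressed Flg and Cnfn, genes of the cornifying cell, had Krt16 at 23340.1 and 19603 and Krt6b at 8505 and 8033. Cluster 16, led by Lor, which encodes the cornified envelope protein loricrin, had the highest levels of Krt6a, Krt6b, Krt16 and Krt17 among the suprabasal-like clusters after CpG ODN (17952, 14052, 30650.3 and 6132), but not after LPS (11012, 8409, 14959 and 772), where only Krt6b was highest there. The 4 genes took 40.3% of keratin UMIs in cluster 16 of the CpG ODN library and 21.4% in that of the LPS library.

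Cluster 15 was the exception among suprabasal-like cells. It was led by Krt4, Ada and Serpinb3a and had Krt13 at 34351 and 30430.6 CPM, so the keratins of oral lining stood high in it. Krt76 was at 2781 and 65.6 and Krt10 at 840 and 141, against 3123 and 2999 for Krt76 in basal-like cells, so Krt76 did not stand above the basal level in this cluster, and the make-up of its cells differed between the libraries. Krt6a was at 3487 and 2957 there and Krt16 at 1014 and 1307, below every other suprabasal-like cluster. The 4 genes took 10.9% and 9.48% of its keratin UMIs. Cluster 15 made up 6.57% of suprabasal-like cells in the CpG ODN library and 16.7% in the LPS library, so its weight in the layer differed between the libraries.

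Of the keratinocyte layers, the junctional-like cells had the most even make-up of summed UMIs. Krt6a, Krt6b, Krt16 and Krt17 made 24.98%, 27.2%, 25.1% and 22.7% of their sum in the CpG ODN library and 23.2%, 21.8%, 27.9% and 27.1% in the LPS library. In basal-like cells the same shares were 71.7%, 1.01%, 9.61% and 17.7% in the CpG ODN library. The medians over junctional-like cells were less even after CpG ODN, at 39.3, 7.13, 3.69 and 43.3 UMIs per 10000 in the same gene order. After LPS they were 65.2, 50.4, 87.1 and 79.3. Of the CpG ODN junctional-like cells, 1 held 32.9% of the Krt6b UMIs and 1 held 42.6% of the Krt16 UMIs. The 4 genes held 42.5% and 50.1% of the keratin UMIs of junctional-like cells, and Krt6a with Krt6b held 70.6% and 72.2% of the type II share, ahead of Krt5. Krt17 was at 5572 and 9703 CPM and had a UMI in all 17 and all 16 of these cells. S100a8, a neutrophil and stressed-epithelium gene, was at 603 and 13598 in the same cells, and the myeloid list that holds it at 5428 and 25501, and the part of neutrophil RNA in these levels was not tested.

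**Figure D2:**
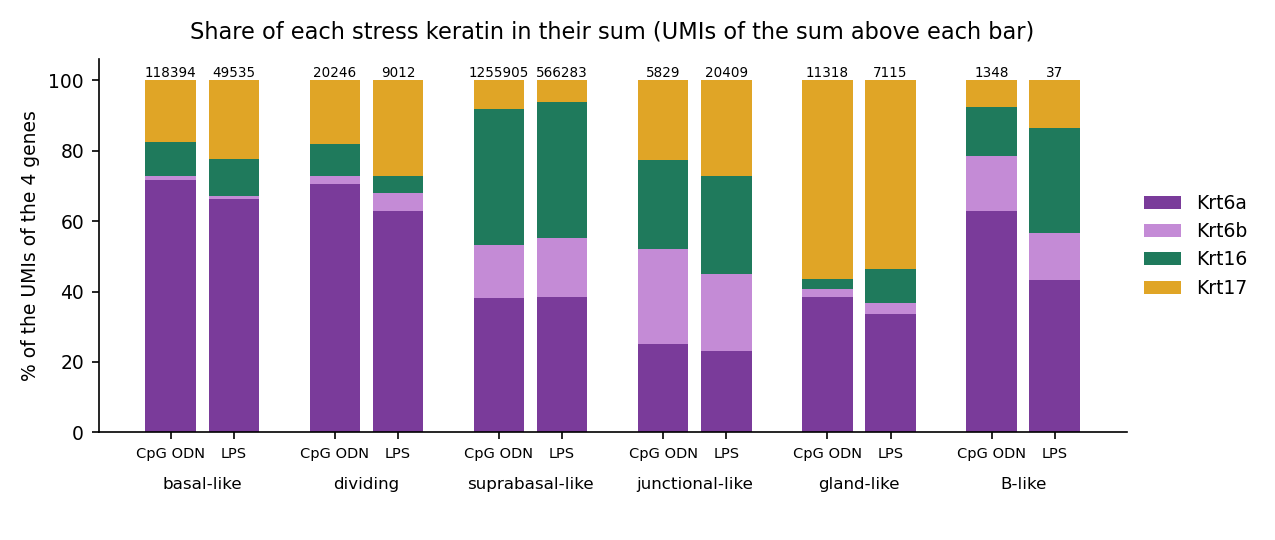
Share of each gene in the summed UMIs of the 4 stress keratins (%, stacked bars from 0 to 100) by cell class and library, with the summed UMIs above each bar. Krt6a makes 71.7% of the sum in basal-like cells of the CpG ODN library, the junctional-like bars are near even, and Krt17 makes 56.3% of it in the gland-like cells of that library.

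Outside the keratinocytes, in both libraries Krt17 was the leading member in gland-like cells and in a cluster with genes of contractile cells. Gland-like epithelial cells (133 and 93 cells) had Krt17 at 3775 and 1834 CPM, against 2576 and 1149 for Krt6a, 203 and 331 for Krt16, and 149 and 103 for Krt6b. An unnamed cluster of 11 and 7 cells led by Acta2, Tagln and Myh11, genes of contractile cells, had Krt17 at 1719 and 1981 with a UMI in every cell. That cluster had 0 UMIs of Krt6b, which allows up to 84.5 and 58.5 CPM by the Poisson interval. In fibroblast-like cells (237 and 54 cells) the libraries differed, with Krt17 making 10.4% of the UMIs of the 4 genes after CpG ODN and 68.1% after LPS, where 1 cell held 64.3% of the Krt17 UMIs.

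Free RNA in droplets sets a floor to these values, read here from B-like cells (522 and 73 cells, median 2919 and 3207 UMIs), which should lack keratins and are the most numerous such class. Krt6a was at 313 and 56.1 CPM in these cells. A single CpG ODN B-like cell held 47.0% of its UMIs there, and without that cell the level was 168. Several other classes held more and some held less, so it is not a fixed floor. Krt6a was at 6896 and 34.6 CPM in myeloid-like cells (64 and 13 cells), at 8971 and 5026 in red-cell-like barcodes (36 and 9) and at 2145 and 2758 in T-like cells (86 and 27), where 1 LPS cell held all of it. Endothelial-like cells (49 and 24 cells) had it at 84.3 and 49.8. No doublets were removed, and their part in these levels was not tested. A UMI of Krt6a was present in 25.1% and 19.2% of B-like cells, of Krt16 in 22.0% and 15.1%, of Krt6b in 15.1% and 6.85%, and of Krt17 in 8.81% and 6.85%. Because depth differs, shares were compared with cells thinned to 2000 UMIs, which left out cells below that depth, so that 420 of 522 and 71 of 73 B-like cells and 3645 of 3655 and all 950 keratinocytes entered. Thinned B-like shares were then 14.3% and 11.4% for Krt6a, 12.0% and 8.76% for Krt16, 8.29% and 3.39% for Krt6b, and 4.22% and 4.21% for Krt17.

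Krt6a was found in nearly every keratinocyte. As counted, basal-like cells (median 10265 and 20482 UMIs) had a UMI of Krt6a in 98.0% (97.2 to 98.6) and 97.0% (94.98 to 98.4), and thinned in 90.2% and 83.7%. Suprabasal-like cells (median 22438 and 43717 UMIs) had one in 99.7% and 100%, and thinned in 97.8% and 91.8%.

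Krt6b differed most between the layers in the share of cells. Basal-like cells had a UMI in 18.7% (16.98 to 20.6) and 24.2% (20.3 to 28.5), but thinned in 5.18% and 4.33%, which is below the B-like share in the CpG ODN library and close to it in the LPS library. The basal-like level of 59.4 and 43.2 CPM stood beside 78.2 and 17.5 CPM in B-like cells, but 1 CpG ODN B-like cell held 57.1% of the Krt6b UMIs, and without it the level was 34.0. By the thinned share, Krt6b in basal-like cells of the CpG ODN library did not stand above B-like cells. By the level it was above the B-like cells without that cell. With 73 B-like cells, the thinned LPS share cannot be told apart from theirs. The share as counted was higher in basal-like than in B-like cells in both libraries, but at unlike depth. B-like cells were much shallower, so an equal number of UMIs need not carry the same free RNA in both classes. The background of Krt6b in basal-like cells is thus not fixed by these readings. Suprabasal-like cells had a UMI in 85.0% and 85.4%, and thinned in 67.9% and 64.8%.

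Krt16 was present in 60.1% and 62.1% of basal-like cells and thinned in 28.8% and 25.1%, above the B-like share. In suprabasal-like cells it was in 94.02% and 91.5%, and thinned in 79.4% and 70.98%. Krt17 showed no such step. Its thinned share was 40.6% and 37.4% of basal-like cells and 38.6% and 35.4% of suprabasal-like cells.

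The UMIs of a gene were spread very unevenly over keratinocytes. Of the Krt6a UMIs, 50% lay in 12.6% and 11.7% of keratinocytes. For Krt6b the figure was 4.21% and 4.42%, and for Krt16 4.21% and 4.53%. For Krt17 it was 1.94% and 2.53%, the narrowest of the 4. Per cell, Krt17 had a median of 1.30 and 1.10 UMIs per 10000 and a maximum of 668 and 322, and 8.65% and 7.37% of keratinocytes exceeded 50 per 10000. Krt6a exceeded that level in 52.7% and 45.6% of keratinocytes, Krt16 in 20.9% and 20.8%, and Krt6b in 12.3% and 13.5%.

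Whether type II and type I members lie in the same cells was asked with Spearman's rho of UMIs per 10000 across keratinocytes. These are descriptions without a p-value, over 3655 and 950 cells that share a library, and both genes of a pair share the depth of the cell. Krt6a with Krt16 had rho 0.78 and 0.76, and Krt6b with Krt16 0.67 and 0.65. Krt6a with Krt6b had 0.69 and 0.68. After thinning to 2000 UMIs the values were 0.72 and 0.71, 0.67 and 0.70, and 0.65 and 0.66. Within suprabasal-like cells alone the 3 genes also went together, with rho 0.69 and 0.75 for Krt6a with Krt16, 0.72 and 0.74 for Krt6b with Krt16, and 0.70 and 0.74 for Krt6a with Krt6b. Within basal-like cells Krt6a with Krt16 had 0.51 and 0.50, whereas Krt6b had 0.14 and 0.11 with Krt16 and 0.19 and 0.23 with Krt6a. Thinning lowered most of the values within layers. In suprabasal-like cells the 3 pairs in the same order then had 0.62 and 0.71, 0.67 and 0.72, and 0.60 and 0.70, and in basal-like cells Krt6a with Krt16 had 0.41 and 0.38 and Krt6a with Krt6b 0.16 and 0.085.

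Krt17 did not join them. Its rho was 0.15 and 0.28 with Krt6a, 0.07 and 0.15 with Krt6b, and 0.24 and 0.32 with Krt16. Within suprabasal-like cells alone its rho with Krt16 was higher, at 0.47 and 0.59 (thinned 0.41 and 0.47), and with Krt6a 0.31 and 0.52 (thinned 0.26 and 0.42). The basal pair Krt5 with Krt14 had 0.20 and 0.31 over keratinocytes and Krt1 with Krt10 had 0.35 and 0.29. Over all keratinocytes pairs with the differentiation keratins lay below those among Krt6a, Krt6b and Krt16, some of them by little. Krt76 with Krt10 had 0.61 and 0.63 and Krt6a with Krt76 0.66 and 0.64. Krt6b with Krt10 had 0.66 and 0.63, and Krt16 with Krt76 0.60 and 0.51. Within suprabasal-like cells alone Krt16 with Krt76 had 0.54 and 0.60 and Krt6b with Krt10 0.64 and 0.63. Krt6a with Krt10 had 0.49 and 0.55 there, and Krt6a with Krt76 0.33 and 0.43. As counted, the pairs among Krt6a, Krt6b and Krt16 in that layer, given above, were higher than these. Over all keratinocytes the values thus set the members little apart from the differentiation keratins, and more so within suprabasal-like cells. The difference was not tested.

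The levels were also read along keratinocytes ordered by Krt6b, an order that follows differentiation as well. From no Krt6b to the highest bin the median of Krt76 went from 12.6 and 6.65 to 406 and 228 UMIs per 10000, and that of Krt5 from 53.4 and 52.9 to 0.232 and 0.161. In the 1941 and 448 cells without a Krt6b UMI the median of Krt16 was 0.918 and 0.520 UMIs per 10000. It was 31.4 and 27.1 in cells with over 5 to 20 Krt6b UMIs per 10000, and 289 and 275 in those with over 100 (196 and 45 cells). Krt6a had a median of 26.4 and 17.3 at no Krt6b and 190 and 183 at the highest. The median of Krt17 was 1.35 and 0.976 at no Krt6b and 8.54 and 12.3 at the highest, where its upper quartile reached 82.1 and 27.1.

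**Figure D3:**
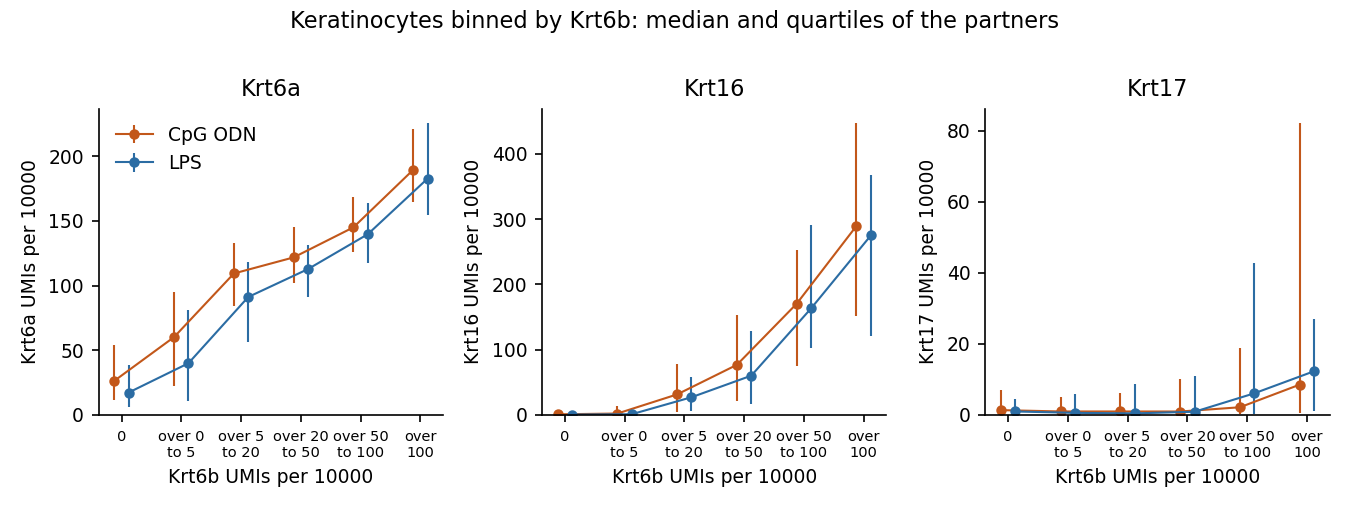
Median (points) and quartiles (bars) of Krt6a, Krt16 and Krt17 UMIs per 10000 in keratinocytes binned by Krt6b UMIs per 10000, for the CpG ODN library (orange) and the LPS library (blue). Krt16 climbs from a median of 0.918 and 0.520 to 289 and 275, while the median of Krt17 stays at or below 12.3 in every bin.

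As a total, the type II members met a type I member in most cells at full depth, but less so at equal depth. As counted, 88.7% and 89.6% of keratinocytes held UMIs of both a type II and a type I member, 10.3% and 9.16% of a type II member only, and 0.602% and 0.632% of a type I member only. Thinned to 2000 UMIs, the shares were 64.4% and 57.8% with both, 29.4% and 30.3% with a type II member only, and 2.20% and 3.30% with a type I member only. Basal-like cells held both in 51.1% and 45.0% when thinned. B-like cells, for background, had a thinned type II UMI in 21.2% and 14.8% and a thinned type I UMI in 15.1% and 12.6%. In UMIs, Krt16 and Krt17 together were 0.375 and 0.489 of Krt6a and Krt6b together in basal-like cells, 0.878 and 0.811 in suprabasal-like cells and 0.916 and 1.22 in junctional-like cells.

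What accompanied Krt17 was described in Krt17-rich cells, defined here as over 50 Krt17 UMIs per 10000, against Krt17-poor cells with at most 5, the latter weighted to the same clusters. There were 99 and 17 rich basal-like cells, and 193 and 40 rich suprabasal-like cells. Since the cells were chosen by Krt17, the contrasts are descriptions without a test. Ordered by the smaller fold of the 2 libraries, Krt42, a type I keratin 1852 bp from Krt17 on chromosome 11, came first in both layers, but single cells carried much of its UMIs and the rank is not relied on. In suprabasal-like cells Krt42 was at 239 CPM in rich and 21.5 in poor cells after CpG ODN, and at 399 and 3.90 after LPS. A single cell held 95.1% of the Krt42 UMIs of the rich LPS cells, so shares of cells are the safer reading. Over all keratinocytes, 34.5% (29.3 to 40.0) of rich and 6.78% (5.83 to 7.84) of poor cells had a Krt42 UMI in the CpG ODN library, and 48.6% (36.4 to 60.8) and 6.72% (4.94 to 8.88) in the LPS library. Median depth was 17677 and 13344 UMIs in rich and poor cells after CpG ODN and 40044 and 27223 after LPS, as counted. None of the 451 windows at the end of Krt42 occurred in Krt17.

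The lining keratins moved the other way. In suprabasal-like cells Krt4 of rich cells was 0.0753 and 0.0517 of its level in poor cells, and Krt13 0.262 and 0.363. Lor and Crct1, named by their rank, were lower, while Krt10 was not, at 1.06 and 1.57 of the poor cells. Lor was at 161 and 79.8 CPM in rich against 1125 and 1588 in poor cells, and Crct1 at 84.2 and 9.54 against 398 and 494. The other stress keratins were higher, Krt16 by 2.16-fold and 2.86-fold and Krt6b by 1.68-fold and 1.61-fold. Krt76 was near equal in rich and poor cells, at 0.969 and 1.05.

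In basal-like cells a Krt42 UMI was found in 27.3% of rich and 2.52% of poor cells after CpG ODN, and in 35.3% (6 of 17 cells) and 3.13% after LPS. Levels of Krt42 are not compared there for LPS, since 1 cell held 90.9% of its UMIs in rich cells and 1 cell 97.9% of those in poor cells. Krt13 was lower in rich basal-like cells, at 0.240 and 0.316 of the poor cells, while Krt16 was at 2.95 and 2.04 and Krt6a at 1.25 and 1.76. Krt6b was at 0.413 and 0.402, but its 27.3 and 12.1 CPM in rich cells lay below its level in B-like cells. Krtdap, a keratinocyte differentiation gene, was at 676 and 1536 CPM in rich and 122 and 70.6 in poor cells. The secreted signals Wnt5a (61.3 and 74.6 against 20.2 and 21.5) and Wnt7b (41.9 and 68.5 against 13.0 and 18.7) were higher. The chemokine genes Cxcl1 (26.3 and 68.5 against 67.9 and 144) and Cxcl2 (5.84 and 24.2 against 25.7 and 58.1) were lower. With 17 rich basal-like cells, the LPS values are those of few cells.

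**Figure D4:**
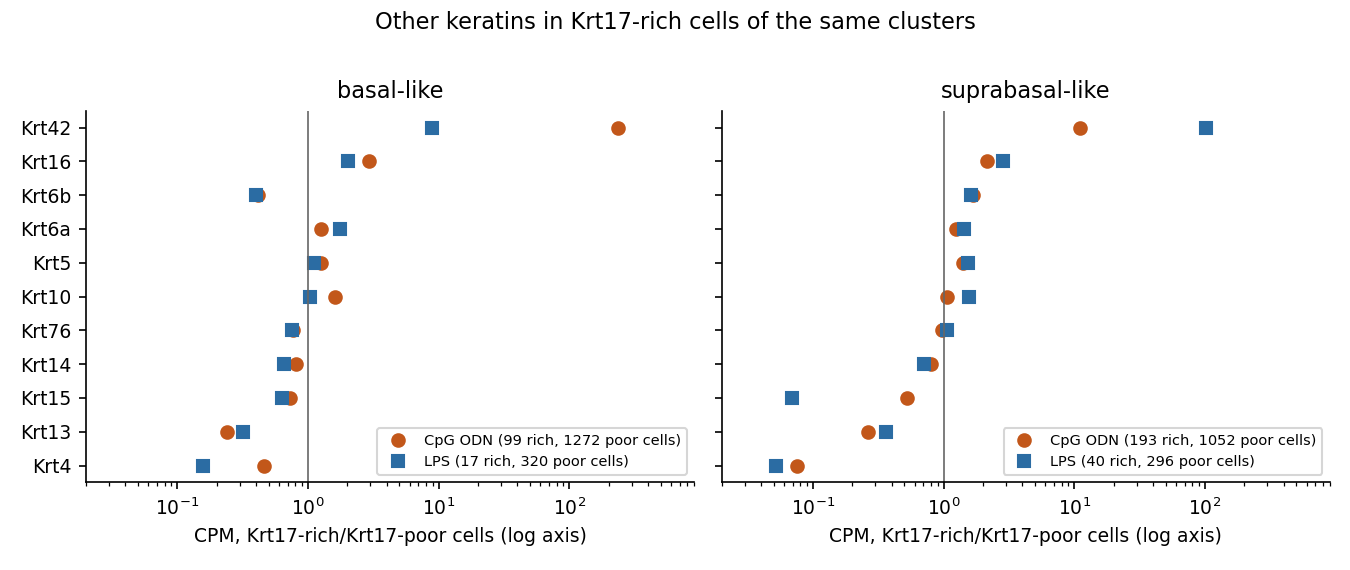
Ratio of CPM between Krt17-rich and Krt17-poor cells (log axis) for other keratins in basal-like (left) and suprabasal-like cells (right), CpG ODN as orange circles and LPS as blue squares. Krt42 lies far above 1, although single cells hold 90.9% (basal-like) and 95.1% (suprabasal-like) of its UMIs in the rich LPS cells, and Krt13 and Krt4 below 1 in both layers and both libraries, and Krt4 is at 0.0753 and 0.0517 in suprabasal-like cells.

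Over 26 points (keratinocyte clusters by library with at least 20 cells), the genes whose levels were most like a member's were sought among 3675 genes by Pearson's r of log2(CPM + 10), as a description. For Krt6a they were Pmvk, Dsg1a, Krt24, Gcat and Krt16 (r 0.98 to 0.95). For Krt16 they were Perp, Spink5, Dsg1a, Serpinb3b and Cdkn2b (0.97 to 0.96), where Dsg1a and Perp are genes of desmosomal adhesion. For Krt6b they were Tuba4a, Cdkn2b, Aox4, Cst6 and Clint1 (0.98 to 0.97). For Krt17 the closest, Tubb3, Spsb2, Crip2, Wsb2 and Eif4ebp2, reached only 0.79 to 0.71, and its r with the other members was 0.48 to 0.54.

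Between the ligands the members differed little over all keratinocytes. The CpG ODN/LPS ratio was 1.18 (1.17 to 1.18) for Krt6a, 1.03 (1.02 to 1.04) for Krt6b, 1.16 (1.15 to 1.16) for Krt16 and 1.25 (1.24 to 1.27) for Krt17. None of the 4 passed 1.5-fold. Of 11319 genes with at least 100 UMIs, 0.919% were past 1.5-fold to the side of CpG ODN and 3.89% to the side of LPS, around a median ratio of 0.994. These intervals cover counting error only, and whether mice of 1 ligand differ as much among themselves cannot be told from 1 library each.

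In suprabasal-like cells the ratios were 1.21 for Krt6a, 1.11 for Krt6b and 1.22 for Krt16, and 1.59 (1.57 to 1.61) for Krt17, the only member past 1.5-fold there. The background was 1.06% of genes toward CpG ODN and 3.47% toward LPS. The Krt17 value was uneven over the clusters. In cluster 16 Krt17 was 6132 against 772 CPM, a ratio of 7.94. In cluster 15 it was 2184 against 529.6, a ratio of 4.12, or 9.73 without the top cell of each library. In that cluster 1 LPS cell held 70.5% and 1 CpG ODN cell 30.0% of the UMIs. As given above, Krt76 and Krt10 differed between the libraries in it as well. The ratio was 2.12 in cluster 7, 1.57 in cluster 12, 1.29 in cluster 8, 1.01 in cluster 6 and 0.532 in cluster 3. Without cluster 16 the layer's ratio was 1.30, and without cluster 15 it was 1.42.

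In cluster 16 all 4 genes were higher in the CpG ODN library, Krt6a by 1.63-fold, Krt6b by 1.67-fold, Krt16 by 2.05-fold and Krt17 as above (12.2-fold without the top cells). In this cluster 7.0% of 3945 genes were past 1.5-fold toward CpG ODN and 9.02% toward LPS. The cells of the cluster also differed in differentiation genes between the libraries: Lor was at 4074 CPM after CpG ODN and 18433 after LPS, Krt4 at 6758 and 35795, Krt13 at 29984 and 61665, and Krt76 at 36434 and 16706. The part of this make-up in the ratios was not tested. Cluster 16 held 91 CpG ODN cells and 33 LPS cells, whose median depth was 35754 and 78780.0 UMIs. In cluster 8, which is led by Cxcl2, Icam1 and Ccl20, Krt6b was at 967 and 460.1, a ratio of 2.10. Of 5162 genes there, 99.8% had a ratio at or below it. The same share was 99.8% for Krt17 in clusters 7 and 15, so cluster 8 did not stand alone in this. Cluster 12, with Ccl20 and Cxcl2 also among its leading genes, had a Krt6b ratio of 1.25. The other suprabasal-like clusters went from 0.694 in cluster 3 to 1.67 in cluster 16.

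In basal-like cells no member passed 1.5-fold, where 0.801% of genes did toward CpG ODN and 1.9% toward LPS. Krt6a had a ratio of 1.24, Krt16 of 1.05, Krt6b of 1.38 (1.23 to 1.54) and Krt17 of 0.903 (0.882 to 0.924). The last value turned on 1 cell, and without the top cell of each library the Krt17 ratio was 1.24. For Krt6b, near the level of B-like cells here, it was then 1.88. The basal-like clusters varied to either side of these layer values. The Krt17 ratio went from 0.671 in cluster 11 to 2.05 in cluster 9, that of Krt16 from 0.646 in cluster 9 to 1.68 in cluster 11, and that of Krt6a from 0.999 in cluster 1 to 1.66 in cluster 11. The low end of Krt17 turned on single cells, and that of Krt16 in part. Without the top cell of each library the Krt17 ratio was 1.14 in cluster 11 and the Krt16 ratio 0.794 in cluster 9. The Krt6a ratio in cluster 1 was then 1.01. In dividing cells (background 2.17% toward CpG ODN and 2.4% toward LPS) Krt6a had 1.29 and Krt16 2.13, which was 1.48 without the 1% of cells with the most UMIs. The lining keratins also differed in the dividing cells, Krt4 at 52.8 and 1302 CPM and Krt13 at 941 and 3514, and their part in the Krt16 ratio was not tested. Krt6b had 0.516 and Krt17 0.764, but 1 LPS cell held 95.4% of the Krt6b UMIs and 1 LPS cell 67.9% of the Krt17 UMIs, and without the top cells the ratios were 4.72 and 2.14. With a minimum of 200 detected genes the dividing Krt17 ratio was 0.292, and as a mean over cells 1.07.

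The junctional-like cells differed in the other direction, with ratios of 0.740 for Krt6a, 0.858 for Krt6b, 0.620 for Krt16 and 0.574 for Krt17. Here 8.95% of genes were past 1.5-fold toward CpG ODN and 9.79% toward LPS, so with 17 and 16 cells Krt16 and Krt17 stood in a wide background. A single cell held 42.6% of the Krt16 UMIs of the CpG ODN cells. With layers gated per cell the Krt16 ratio was 0.881 and that of Krt6b 1.24, so neither the size of the first nor the direction of the second was fixed.

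**Figure D5:**
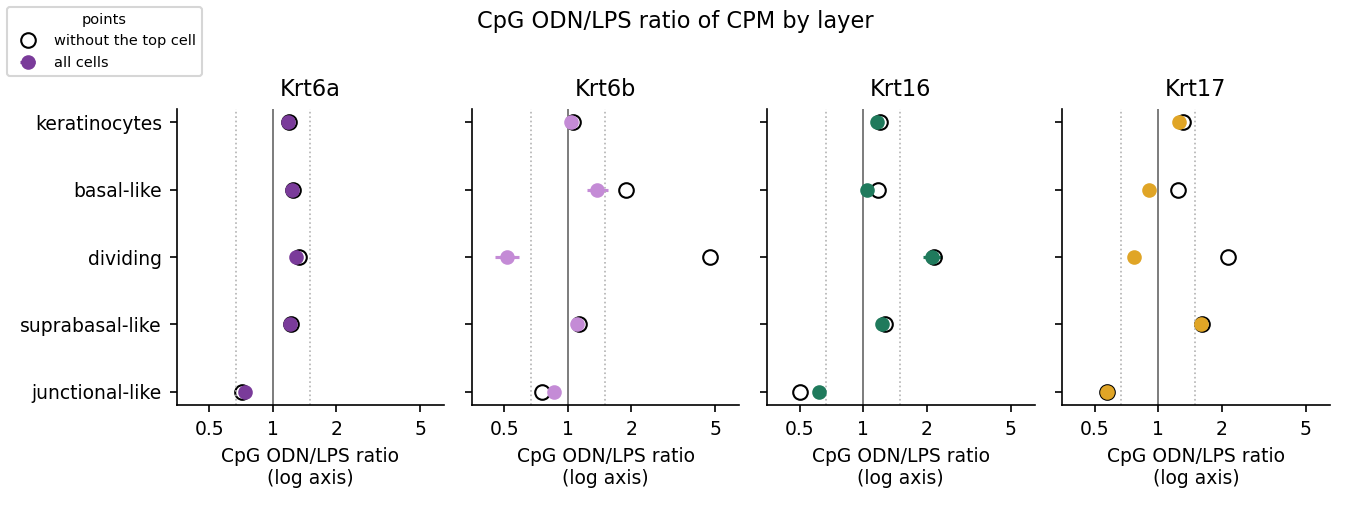
CpG ODN/LPS ratio of CPM (log axis) for each gene by layer, with 95% counting intervals (bars, mostly hidden by the points), open circles for the ratio without the cell of each library with the most UMIs of the gene, and dotted lines at 1.5-fold to either side. Over all keratinocytes the 4 ratios lie between 1.03 and 1.25, whereas Krt6b and Krt17 in dividing cells go from 0.516 and 0.764 to 4.72 and 2.14 without the top cells.

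Genes known to act with or upstream of the stress keratins were taken as lists. Over all 11319 genes tested in keratinocytes, 0.919% were past 1.5-fold toward CpG ODN and 3.89% toward LPS. Of 20 transcriptional regulators tested in keratinocytes, such as Nfe2l2, Stat3 and AP-1 members, 0 were past 1.5-fold in either direction and the median ratio was 0.977. The highest were the glucocorticoid receptor gene Nr3c1 (1.17) and Cebpd (1.11), and the lowest the AP-1 gene Fosl1 (0.793) and Nfkb1 (0.860). In basal-like cells 1 of 19 regulators was past 1.5-fold toward LPS, Fosl1 at 0.540, with a median of 0.861. The share over all genes there was 1.9%. In suprabasal-like cells 0 of 19 passed in either direction. Of 10 targets of NRF2, the oxidative stress regulator encoded by Nfe2l2, 0 were past 1.5-fold, from Hmox1 (0.682) and Slc7a11 (0.694) to Txnrd1 (1.12) and Gclc (1.27). Of 17 growth factor and wound genes tested, 0 were past it toward CpG ODN and 2 toward LPS, the EGF-family ligand gene Ereg (0.277) and the urokinase receptor gene Plaur (0.463), while Epgn (1.48) and Fn1 (1.40) had the highest ratios.

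The barrier alarm genes, which are antimicrobial, small proline-rich and interleukin-1 family genes often raised together with stress keratins, lay to the LPS side. Of 15 tested, 13 were over 1.5-fold higher in the LPS library and 0 in the CpG ODN library, with a median ratio of 0.320. Over all 11319 genes the shares were 3.89% and 0.919%. S100a8 (0.0163) and the siderophore-binding gene Lcn2 (0.0629) were lowest, and the cornified envelope gene Sprr1b (0.983) and Defb3 (0.671) highest. In suprabasal-like cells alone 10 of the list could be tested, with 1 higher after CpG ODN, 4 higher after LPS and a median of 0.740. The shares over all genes of that layer were 1.06% and 3.47%. By layer S100a8 had a ratio of 0.0451 in basal-like cells and 1.16 (0.788 to 1.72) in suprabasal-like cells. Its levels were low in both, at 0.749 and 16.6 CPM in basal-like cells and 2.24 and 1.94 in suprabasal-like cells. Among LPS basal-like cells it was at 78.5 CPM in cluster 2, against 0.419 to 6.65 in the other basal-like clusters. The junctional-like cells, rich in S100a8, were 17 of 3655 keratinocytes in the CpG ODN library and 16 of 950 in the LPS library.

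Of the other abundant keratins, Krt5 was at 1.05, Krt76 at 1.16, Krt14 at 1.24 and Krt10 at 1.01, while Krt13, at 9437 and 15013 CPM, had a ratio of 0.629. Of 10 type II keratins tested, 1 was over 1.5-fold higher after CpG ODN, the simple epithelial keratin Krt8 (3.26), and 4 after LPS, of which Krt4 (0.244) and Krt78 (0.425) were lowest. Of 8 type I keratins, 3 were higher after LPS, with Krt19 (0.103) and Krt36 (0.337) lowest. Over all genes 0.919% were past 1.5-fold toward CpG ODN and 3.89% toward LPS. The low Krt4 ratio stood beside the larger share of cluster 15 in the LPS library, and its part in that ratio was not tested.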

How the data were processed

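Cells of palatal gingiva were sequenced with a droplet-based 3′ assay, 1 library per ligand. The authors deposited raw UMI counts per gene and barcode from Cell Ranger 4.0.0 (per the file headers), not normalized; the genome build is not given in the sources used here. Barcodes below 800 detected genes were left out, the limit the study used (6219 and 2016 barcodes became 4888 and 1277 cells). After scaling each cell to 10000 counts and taking logs, 2000 variable genes, 30 principal components and 15 neighbours gave 26 Leiden clusters at resolution 1 (scanpy 1.11.5, leidenalg 0.10.2), with the 4 genes held out. Clusters were named from marker lists by a score set after the data were seen, and 1 cluster stayed unnamed. The members and lists were chosen with earlier results of these data known. Named genes are the members, the 2 highest and 2 lowest ratios of each list, the 5 genes most like each member, and genes leading a cluster or the Krt17 contrast, the last chosen after their values were seen.

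Levels are CPM of the summed cells with exact Poisson intervals, ratios have exact conditional binomial intervals, and shares exact Clopper-Pearson intervals (scipy 1.17.1). Genes with at least 100 UMIs formed the background. Scripts were tested on simulated data. The libraries shared 5 barcodes, 1 of them between keratinocytes. Scrublet marked 0.348% and 0.235% of cells, too few for the caller to have worked, so no doublets were removed. Alternatives were other filters, clusterings, scalings and leaving out top cells or clusters.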

Additional observations from a re-analysis of the deposited data

Results flagged for a closer look

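In 7 cases the CpG ODN/LPS ratio of a member lay below 1 in a layer while it lay above 1 in suprabasal-like cells, and the difference between layers was not tested. In junctional-like cells these were Krt6a at 0.740, Krt6b at 0.858, Krt16 at 0.620 and Krt17 at 0.574, where Krt6b turned to 1.24 with layers gated per cell. In dividing cells they were Krt6b at 0.516 and Krt17 at 0.764, and in basal-like cells Krt17 at 0.903, and these last 3 turned above 1 when the cell with the most UMIs was left out of each library.

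Barcodes under the filter of 800 detected genes also carried the genes above the limit that a count of 0 allows. No main comparison used them, but the alternative with a minimum of 200 detected genes took in part of them. In the 1331 such barcodes of the CpG ODN library Krt6a was at 1009 CPM, Krt6b at 491, Krt16 at 1285 and Krt17 at 371. In the 739 of the LPS library they were at 455, 244, 439 and 39.9. Hemoglobin genes took 23.5% and 74.8% of the UMIs of these barcodes.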

How the results depend on the processing

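Over all keratinocytes the ratios kept within 1.5-fold under all 19 alternatives, from 1.13 to 1.20 for Krt6a, 0.938 to 1.17 for Krt6b, 1.03 to 1.23 for Krt16 and 1.07 to 1.40 for Krt17. The 140 rho values over all keratinocytes (5 pairs in either library, 14 alternatives) moved by less than 0.1, whereas within layers thinning moved some by more, as for Krt6a with Krt6b in LPS basal-like cells, from 0.23 to 0.085. With a minimum of 200 detected genes the basal-like Krt6b ratio was 2.31, the dividing Krt6b ratio 11.2 and the LPS suprabasal/basal ratio of Krt17 2.01. With a minimum of 1200 genes the Krt6b ratio was 1.69 and the suprabasal-like Krt17 ratio 1.48. Basal-like Krt6b was 1.58 with at most 10% mitochondrial UMIs, 1.62 at Leiden resolution 2.0, 2.11 with each library clustered alone and 1.88 without the top cell. Basal-like Krt17 was 0.661 with each library clustered alone and 0.590 with all keratins held out, and basal-like Krt16 0.649 with the 4 genes taking part, where dividing Krt6b was 10.4. With layers gated per cell the suprabasal-like Krt17 ratio was 1.49, the CpG ODN suprabasal/basal ratio of Krt17 1.65 and dividing Krt6b 1.15. As a mean over cells the suprabasal-like Krt17 ratio was 1.33 and the LPS suprabasal/basal ratio of Krt17 2.01. The latter was 2.01 without the top cell, 2.21 without the top 1% of cells and 2.35 without cluster 11. Over the alternatives the suprabasal/basal ratio of Krt17 went from 1.65 to 3.38 after CpG ODN and from 0.822 to 2.35 after LPS, and the other members stayed past 2-fold. Junctional-like Krt16 was 0.881 and Krt6b 1.24 with layers gated per cell, dividing Krt16 1.48 without the top 1% of cells, and dividing Krt17 0.292 with a minimum of 200 genes and 0.666 with layers gated per cell. Dividing Krt6b was 4.72 and 2.16 without the top cell and the top 1%. Suprabasal-like Krt17 was 1.42 without cluster 15 and 1.30 without cluster 16, both chosen after seeing the data. The causes were not tested.

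Shares of keratinocytes with a UMI, thinned to 2000 in the main reading, moved with depth. As counted, thinned to 5000 and with at least 3 UMIs they were, after CpG ODN, 98.8%, 97.4% and 80.8% for Krt6a, 46.9%, 37.9% and 22.8% for Krt6b, 74.5%, 62.1% and 33.0% for Krt16, and 67.6%, 52.8% and 20.3% for Krt17. After LPS they were 98.5%, 93.6% and 72.1%, 52.8%, 37.4% and 24.2%, 75.5%, 55.3% and 31.6%, and 70.0%, 48.9% and 19.6%. No paired analysis was possible because there is only 1 library for either ligand.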
